A study of Mus musculus with 6 samples.

Results

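The genes described here are 35 genes of the ATF4, CHOP and amino acid response, measured in 3T3-L1 adipocytes that had been exposed to antiretroviral drugs. They were chosen by symbol, with earlier results of these data known. They cover transcription factors, serine and one-carbon enzymes, asparagine and thiol enzymes, and amino acid transporters. Cytosolic tRNA synthetases, brakes on growth and translation, and secreted factors are also included. Each gene was read from its probe set annotated to 1 gene only, and where a gene had several such probe sets, from the one with the highest mean over the 6 arrays. A probe set was found in this way for 34 of the 35 genes, out of 18194 genes named on the array, and Gdf15 was not analysed here.

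3T3-L1 is an established mouse preadipocyte line that turns into lipid-storing, adipocyte-like cells under a hormonal cocktail. In every group the cells had received insulin, 3-isobutyl-1-methylxanthine and dexamethasone first, and were then kept with insulin and the test agent for 5 days. The first experiment held 3 groups, which were the vehicle ethanol at 0.1%, the HIV protease inhibitor ritonavir at 20 µM and the reverse transcriptase inhibitor tenofovir at 1 µM. The second held 3 further groups that all carried ritonavir at 20 µM, combined with DMSO at 0.1%, with the conjugated linoleic acid (CLA) isomer c9,t11-CLA at 100 µM, or with t10,c12-CLA at 100 µM. The CLA isomers differ in the position and geometry of their double bonds. The second experiment has no group without ritonavir, so ritonavir with DMSO can be set against a drug-free array only across experiments. Each group is 1 Affymetrix array, hybridised with RNA pooled from 4 replicate experiments. No group therefore has a measured spread, no test was possible, and every difference below is a difference between arrays.

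Values are log2 expression levels, so a difference of 1 is a 2-fold difference. A gene was called detected if at least 1 array reached 6.55, the median of the whole table, which left 12386 genes. All 34 measured genes of the response passed, although Fgf21 did so only through arrays of ritonavir-treated cells. Among the 7 pairs of arrays compared, ethanol and tenofovir were the most alike, with a robust SD of 0.113 over all detected genes. Differences under about this size are not read as differences here, though it is a spread over genes and stands in for the replicate error that was not measured. The robust SD was 0.436 for ritonavir against ethanol and 0.328 for ritonavir with DMSO against ethanol.

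The arrays differed widely in adipocyte identity. The mean level of 16 detected mature adipocyte markers was 12.92 with ethanol, 12.96 with tenofovir and 9.43 with ritonavir. It was 12.05 in ritonavir with DMSO, 12.23 with c9,t11-CLA and 10.76 with t10,c12-CLA. The markers of the labelled cell type were thus high on the drug-free arrays, lowest with ritonavir alone, and in between with t10,c12-CLA. The mean of 17 preadipocyte and fibroblast markers ranged from 11.49 to 12.65, with its highest value in ritonavir alone, and that of 15 cell cycle genes from 9.02 in ritonavir alone to 10.47 with ethanol. Of 10 macrophage markers, 6 were under the detection level on every array. The mean of the 4 detected was 7.30 with ethanol, 7.72 with ritonavir and 8.34 with t10,c12-CLA. Among them Cd68 read 6.87, 8.71 and 10.10 on these arrays, and Cd14 read 7.90, 8.21 and 9.24. Csf1r and Lyz2 read lower than ethanol on every other array. These shifts run through the same arrays as the results below, and their part in them was not tested. In pooled RNA from whole cultures, fewer cells of a type and less RNA per cell cannot be told apart.

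As background, the integrated stress response begins when kinases that sense amino acid shortage, unfolded proteins in the endoplasmic reticulum, haem shortage or viral RNA phosphorylate the initiation factor eIF2. General translation then slows, while the mRNA of the transcription factor ATF4 is translated more. ATF4 pairs with C/EBP proteins and drives genes for amino acid synthesis, uptake and tRNA charging, together with CHOP (Ddit3), ATF3 and Trib3. Because ATF4 is controlled largely through translation, its mRNA level is a poor gauge of its activity. In fat cells CHOP is known as a C/EBP family member that can interfere with the C/EBP factors of adipogenesis.

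ATF4 and its partners bind C/EBP-ATF response elements, whose core is TGATGNAA. RefSeq promoter windows of build GRCm38.p6, from 250 bases before to 50 bases after a gene's start, were held for 29 of the 35 genes. Some genes had more than 1 window, which gave 33 windows. The core was searched for on both strands and stood in 9 of the 33 windows, against 3.97% of all 32851 windows. The 9 windows belonged to 9 genes. These were Atf3, Nupr1, Trib3, Asns, Chac1, Aars1, Gars1, Tars1 and Fgf21. In 6 of them the match was TGATGCAA, a subset of the core, which 0.895% of all windows hold. The 8 stretches with a match before the start are shown, because they carry the letters through which the pathway is known to act. Each is printed 5′ to 3′ along its gene's own strand, with the match in capitals. TTGCATCA and TTTCATCA are the core read on the other strand.
Atf3, chr1:191183406-191183473, minus strand: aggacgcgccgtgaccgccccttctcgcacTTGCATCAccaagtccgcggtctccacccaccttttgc
Nupr1, chr7:126625543-126625610, minus strand: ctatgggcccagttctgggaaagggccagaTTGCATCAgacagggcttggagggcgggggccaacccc
Asns, chr6:7693210-7693262, minus strand: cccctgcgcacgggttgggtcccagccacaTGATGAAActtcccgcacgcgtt
Chac1, chr2:119351019-119351086, plus strand: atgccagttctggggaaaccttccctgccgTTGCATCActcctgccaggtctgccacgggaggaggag
Aars1, chr8:111033700-111033767, plus strand: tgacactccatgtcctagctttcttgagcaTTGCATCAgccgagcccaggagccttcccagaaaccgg
Gars1, chr6:55037941-55038000, plus strand: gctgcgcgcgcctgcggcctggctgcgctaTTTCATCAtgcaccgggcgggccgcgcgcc
Tars1, chr15:11399659-11399703, minus strand: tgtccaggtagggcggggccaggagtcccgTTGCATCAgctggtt
Fgf21, chr7:45615592-45615659, minus strand: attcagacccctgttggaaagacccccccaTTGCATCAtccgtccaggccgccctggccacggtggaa

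The match lay 23 bases before the start in Asns, 15 in Tars1 and 30 in Gars1. It lay 110 bases before it in both Atf3 and Nupr1, 112 in Aars1, 139 in Fgf21 and 193 in Chac1. In Trib3 the only match lay inside the transcribed part, and Aars1 had a further match there. The palindromic cyclic AMP response element TGACGTCA was also searched for. It stood in the window of Ppp1r15a alone among these genes, against 1.79% of all windows. A match is a description of these letters only, and a window without one says nothing of elements elsewhere.

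Against ethanol, ritonavir alone gave higher levels of most of these genes. The median log2 difference was 0.47, against 0.00 over all detected genes, and 26 of the 34 genes were above 0. At least 2-fold higher were 4 genes, Ddit3, Aldh1l2, Atf3 and Ppp1r15a, where 4.56% of all detected genes were. At least 2-fold lower was 1 gene, Ddit4, where 6.39% of all were. At 1.5-fold, 13 genes were higher and 3 lower, with 12.4% of all detected genes higher and 12.4% lower. The 3 were Ddit4, Cebpg and Slc38a2, and the last depends on the probe set. The share of these genes past 1.5-fold upward was well above that background and the share downward was below it. Because the genes were chosen with earlier results of these data known, this is a description only.

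Ritonavir with DMSO, set against the same ethanol array, showed a smaller shift. The median of the 34 genes was 0.28, against 0.02 over all detected genes, and 27 were above 0. Here 3 genes, Atf3, Ddit3 and Trib3, were at least 2-fold higher where 1.52% of all detected genes were, and 0 were at least 2-fold lower where 2.99% were. At 1.5-fold, 8 genes were higher against 6.45% of all, and 1 lower against 7.69%. Both comparisons share the ethanol array, so they are not independent of each other.

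**Figure D1:**
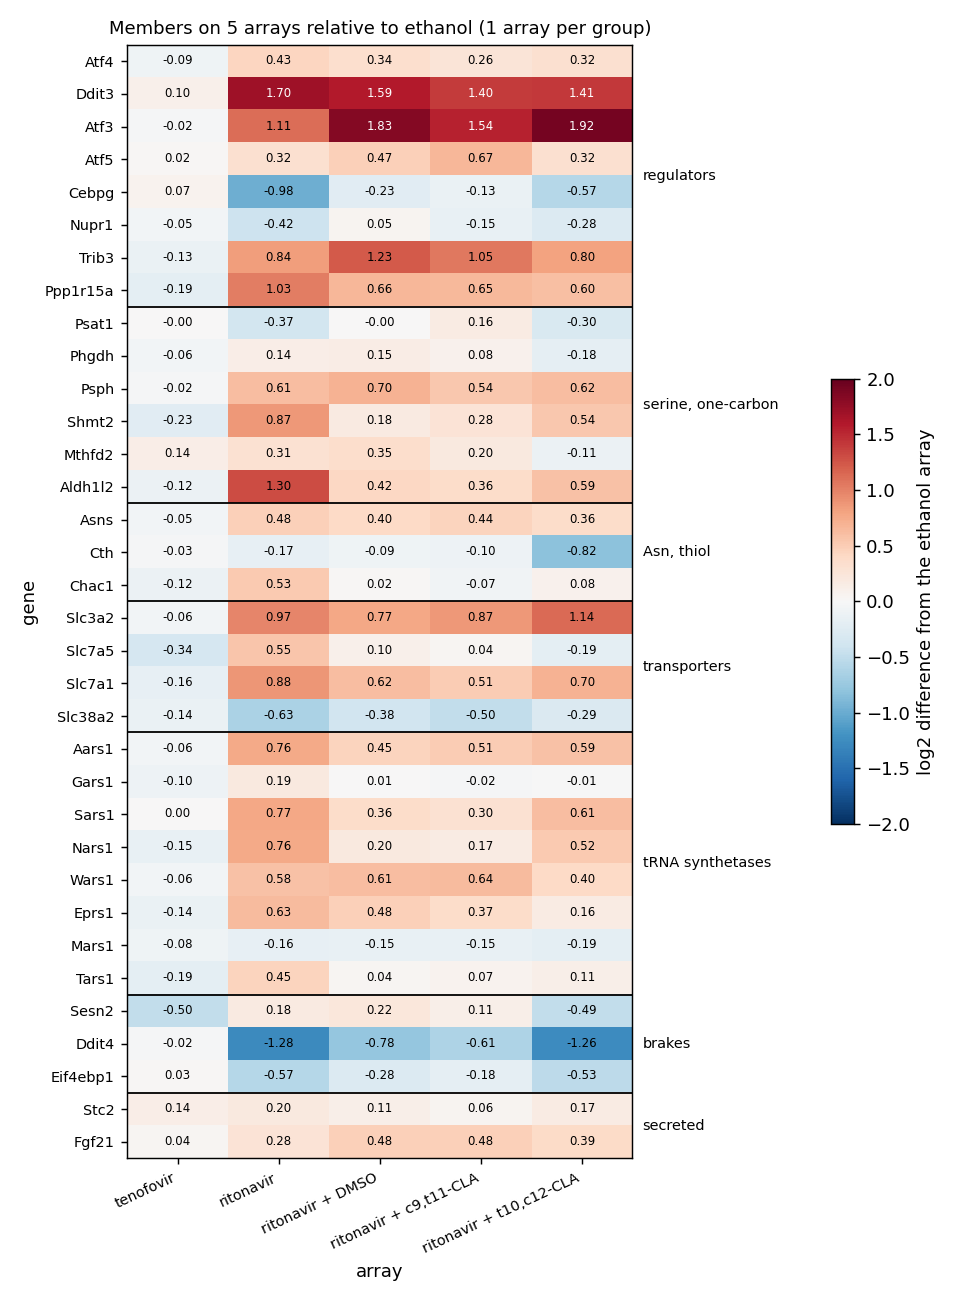
Log2 difference of each of the 34 measured genes (rows, by role) from the ethanol array on the other 5 arrays (columns), 1 array per group; red is higher and blue lower than ethanol. Ddit3, Atf3 and Slc3a2 are red in all 4 ritonavir columns and Ddit4 is blue in all 4, while the tenofovir column is pale.

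Among the regulators, Ddit3, which encodes CHOP, stood highest. Its level was 11.99 with ethanol, 12.09 with tenofovir, 13.69 with ritonavir, 13.58 with ritonavir and DMSO, 13.39 with c9,t11-CLA and 13.41 with t10,c12-CLA. All 4 ritonavir arrays lay well above both arrays without it, and they lay close to each other. Ddit3 ranked 132 from the top of 12386 genes in ritonavir against ethanol and 44 in ritonavir with DMSO against ethanol. A dimmer probe set of the gene gave a larger difference for ritonavir alone, 2.66, and nearly the same one with DMSO, 1.62.

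Atf3, an early stress factor that ATF4 and CHOP are known to drive, behaved differently between the experiments. Its level was 8.60 with ethanol and 8.57 with tenofovir, and 9.70 with ritonavir alone. In the second experiment it was 10.42 with DMSO, 10.13 with c9,t11-CLA and 10.52 with t10,c12-CLA. The DMSO array lay 0.72 above ritonavir alone, and all 3 arrays of the second experiment lay above the ritonavir array of the first. In ritonavir with DMSO against ethanol the difference was 1.83, which ranked 23 of all detected genes.

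Trib3, a pseudokinase that feeds back on ATF4 and CHOP, read 10.99 with ethanol and 10.86 with tenofovir. It read 11.83 with ritonavir, 12.22 with DMSO, 12.04 with c9,t11-CLA and 11.78 with t10,c12-CLA. Its groups with and without ritonavir did not overlap, and like Atf3 it was higher with DMSO than in ritonavir alone, by 0.39.

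Ppp1r15a, or GADD34, directs the phosphatase that removes phosphate from eIF2 and so ends the response. It read 10.48 with ethanol, 10.29 with tenofovir, 11.51 with ritonavir, 11.14 with DMSO, 11.13 with c9,t11-CLA and 11.08 with t10,c12-CLA. Unlike Atf3 and Trib3, it was highest in ritonavir alone, and its difference from ethanol fell short of 2-fold with DMSO, at 0.66.

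Atf4 itself differed less. It read 12.96 with ethanol, 12.87 with tenofovir, 13.39 with ritonavir, 13.30 with DMSO, 13.22 with c9,t11-CLA and 13.28 with t10,c12-CLA. Every ritonavir array lay above both others, but by less than 1.5-fold on this probe set. A dimmer Atf4 probe set, with a suffix for cross-hybridisation, also had all 4 ritonavir arrays above both. It differed from ethanol by 0.57 with ritonavir and by 0.74, past 1.5-fold, with ritonavir and DMSO. Atf5, a related factor under the same translational control, was likewise above both on all 4, with a difference of 0.32 for ritonavir and 0.47 for ritonavir with DMSO, and its highest level, 12.69, with c9,t11-CLA.

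Not every regulator was higher. Cebpg, a C/EBP partner with which ATF4 forms dimers, read 11.70 with ethanol, 11.77 with tenofovir, 10.72 with ritonavir, 11.47 with DMSO, 11.57 with c9,t11-CLA and 11.13 with t10,c12-CLA. Its difference from ethanol was -0.98 with ritonavir alone and -0.23 with DMSO. The other 2 probe sets of Cebpg also read lower with ritonavir alone, with differences of -0.49 and -1.10. Nupr1, a small stress-induced chromatin protein, read 12.60 with ethanol and 12.18 with ritonavir, but 12.65 with DMSO, so its ritonavir and drug-free arrays overlapped.

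**Figure D2:**
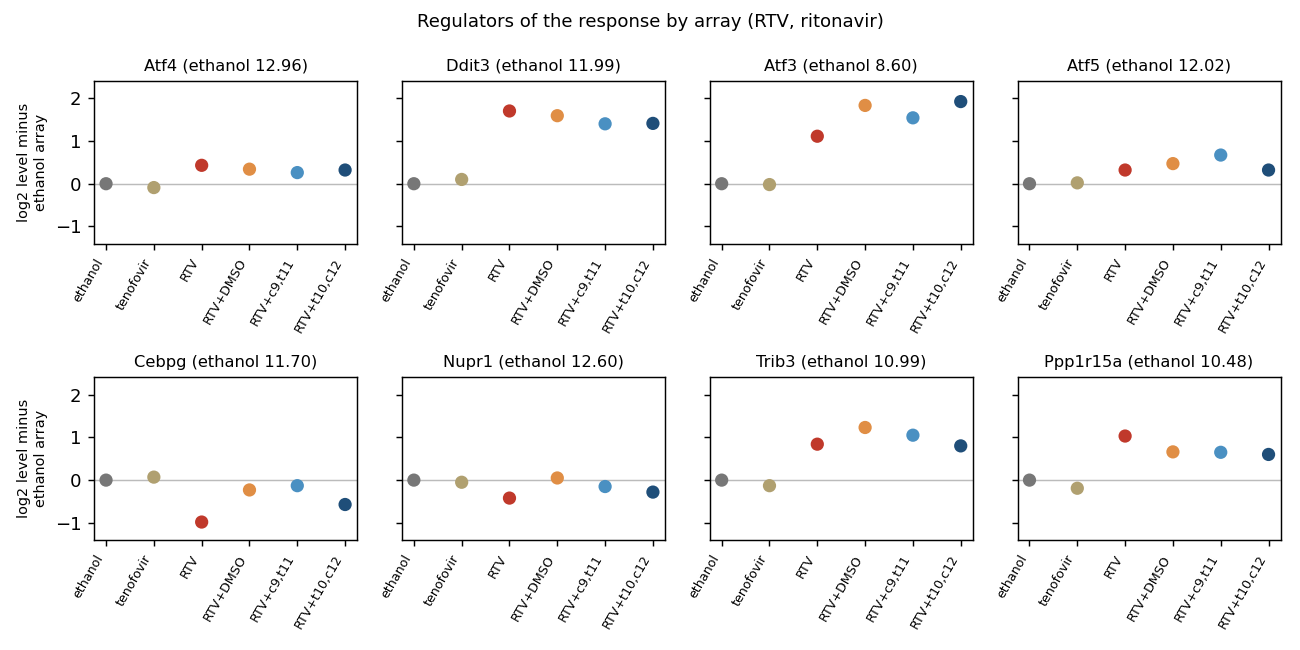
Log2 level of the 8 regulators minus the ethanol array (vertical axis) on each of the 6 arrays (horizontal axis), 1 point per array, with the ethanol level in each panel title. Ddit3, Atf3, Trib3 and Ppp1r15a lie above both drug-free arrays on all 4 ritonavir arrays, and Cebpg lies below on all 4, lowest in ritonavir alone.

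Among the serine and one-carbon genes, the largest differences with ritonavir alone were those of 2 mitochondrial enzymes. Aldh1l2, the mitochondrial enzyme that oxidises formyl-tetrahydrofolate and yields NADPH, read 10.37 with ethanol, 10.24 with tenofovir, 11.67 with ritonavir, 10.79 with DMSO, 10.73 with c9,t11-CLA and 10.96 with t10,c12-CLA. Shmt2, which splits serine into glycine and a one-carbon unit in mitochondria, read 10.55, 10.32, 11.41, 10.73, 10.83 and 11.09 on the arrays in the same order. Both were clearly highest in ritonavir alone. The DMSO array differed from it by -0.88 and -0.68, although it still lay above both drug-free arrays. For Shmt2 this last point depends on the probe set, since the others differed from ethanol by 0.31, 0.03 and -0.12 with DMSO.

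Psph, the last step of serine synthesis, kept its height in the second experiment instead. It read 10.55 with ethanol, 10.53 with tenofovir, 11.16 with ritonavir, 11.25 with DMSO, 11.09 with c9,t11-CLA and 11.17 with t10,c12-CLA. The 4 ritonavir arrays lay close together, and all of them above both drug-free arrays.

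The earlier steps of serine synthesis differed little. Phgdh, the first enzyme, was 0.14 higher with ritonavir and 0.15 with ritonavir and DMSO. Psat1, the aminotransferase after it, differed by -0.37 with ritonavir and read 12.55 with DMSO against 12.56 with ethanol. Mthfd2, the mitochondrial folate dehydrogenase, was 0.31 and 0.35 higher. None of these 3 enzymes had all ritonavir arrays on 1 side of the drug-free arrays. The median of the 6 serine and one-carbon genes was 0.46 for ritonavir and 0.27 for ritonavir with DMSO.

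Asns makes asparagine and is a classical ATF4 target. It read 11.93 with ethanol, 11.88 with tenofovir, 12.41 with ritonavir, 12.33 with DMSO, 12.37 with c9,t11-CLA and 12.29 with t10,c12-CLA. All 4 ritonavir arrays stood above both others in a narrow band. Chac1, which degrades glutathione, was 0.53 higher with ritonavir alone but only 0.02 with DMSO, so its groups overlapped. Cth, which makes cysteine from cystathionine, read 10.70 with ethanol, 10.67 with tenofovir, 10.53 with ritonavir, 10.61 with DMSO and 10.60 with c9,t11-CLA. With t10,c12-CLA it read 9.88, apart from the other 5 arrays.

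Among the transporters, Slc3a2 encodes the heavy chain shared by several amino acid exchangers. It read 11.59 with ethanol, 11.53 with tenofovir, 12.56 with ritonavir, 12.36 with DMSO, 12.46 with c9,t11-CLA and 12.73 with t10,c12-CLA. Its groups with and without ritonavir lay well apart. Its partner Slc7a5, the light chain for large neutral amino acids, did not follow it in the second experiment. Slc7a5 read 11.46 with ethanol, 11.11 with tenofovir, 12.01 with ritonavir, 11.56 with DMSO, 11.50 with c9,t11-CLA and 11.27 with t10,c12-CLA, so its last array lay below ethanol.

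Slc7a1, the carrier of arginine and lysine, read 10.88 with ethanol, 10.72 with tenofovir, 11.76 with ritonavir, 11.50 with DMSO, 11.39 with c9,t11-CLA and 11.58 with t10,c12-CLA. All 4 ritonavir arrays lay above both others. Slc38a2, the glutamine and alanine carrier induced by amino acid starvation, cannot be given a direction. Its brightest probe set read 12.54 with ethanol and 11.91 with ritonavir. A dimmer one read 9.04 with ethanol and 10.09 with ritonavir, a difference of 1.06 the other way. The last one, near the detection level, differed by 0.28.

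**Figure D3:**
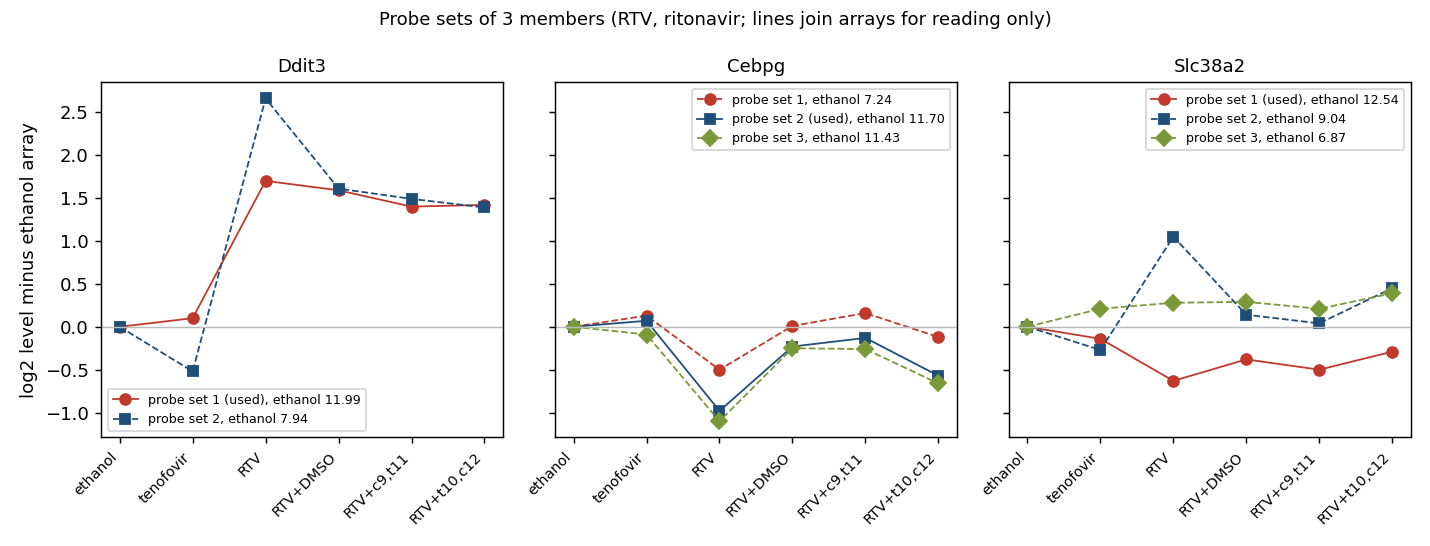
Log2 level minus the ethanol array (vertical axis) for each named probe set of Ddit3, Cebpg and Slc38a2 on the 6 arrays (horizontal axis); solid lines are the probe sets used. The probe sets of Ddit3 lie above ethanol and those of Cebpg below it with ritonavir alone, while those of Slc38a2 point in opposite directions, at -0.63 and 1.06.

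Several probe sets were named for 20 of the 34 genes, with 30 detected probe sets besides those used. In ritonavir against ethanol, 4 of these 30 had the opposite sign, and they belonged to Eif4ebp1, Slc38a2 and Stc2. Among the differences of at least 1.5-fold there, only that of Slc38a2 was opposed by another probe set. In ritonavir with DMSO against ethanol 7 of the 30 had the opposite sign.

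The cytosolic tRNA synthetases attach amino acids to their tRNAs. Of the 8 described here, 7 were higher with ritonavir, with a median of 0.61. Aars1, for alanine, read 12.49 with ethanol, 12.43 with tenofovir, 13.26 with ritonavir, 12.95 with DMSO, 13.01 with c9,t11-CLA and 13.08 with t10,c12-CLA. Sars1, for serine, read 11.56, 11.56, 12.33, 11.92, 11.86 and 12.17 in that order, and Nars1, for asparagine, read 11.82, 11.67, 12.58, 12.02, 11.99 and 12.34. In all 3 the ritonavir array was highest, every ritonavir array was above both drug-free arrays, and t10,c12-CLA read above c9,t11-CLA, though in Aars1 by only 0.07.

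Wars1, for tryptophan, and Eprs1, for glutamate and proline, kept more of their difference in the second experiment. Wars1 was 0.58 higher than ethanol with ritonavir and 0.61 with ritonavir and DMSO, and Eprs1 was 0.63 and 0.48 higher. The probe set used for Wars1 carries a suffix for cross-hybridisation, and the gene's 1 probe set without a suffix differed by only 0.06 and 0.26. Tars1, for threonine, was 0.45 higher with ritonavir and 0.04 with ritonavir and DMSO. Gars1, for glycine, was 0.19 and 0.01 higher. Mars1, for methionine, was the exception. Its differences were -0.16 and -0.15, and its 4 ritonavir arrays read between 10.50 and 10.54, against 10.61 with tenofovir and 10.69 with ethanol, so the nearest were only 0.07 apart.

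The cytosolic synthetases outside the 8 were followed from a list. Of 12 further ones listed, 11 were detected and all 11 were above 0 with ritonavir, with a median of 0.33. Lars1, Vars1 and Iars1, for leucine, valine and isoleucine, were at least 1.5-fold higher, at 0.82, 0.73 and 0.69, where 12.4% of all detected genes were. With DMSO the median was 0.02, and all 11 read lower there than in ritonavir alone. The mitochondrial synthetases, which serve the separate mitochondrial translation system, stood on the other side. Of 15 detected, 11 were lower with ritonavir, with a median of -0.22, and 9 were higher with ritonavir and DMSO, with a median of 0.06. Of all 12386 detected genes, 6214 were above and 6164 below ethanol with ritonavir, and 6445 above it with ritonavir and DMSO. With DMSO against ritonavir alone, 6077 of all were lower.

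**Figure D4:**
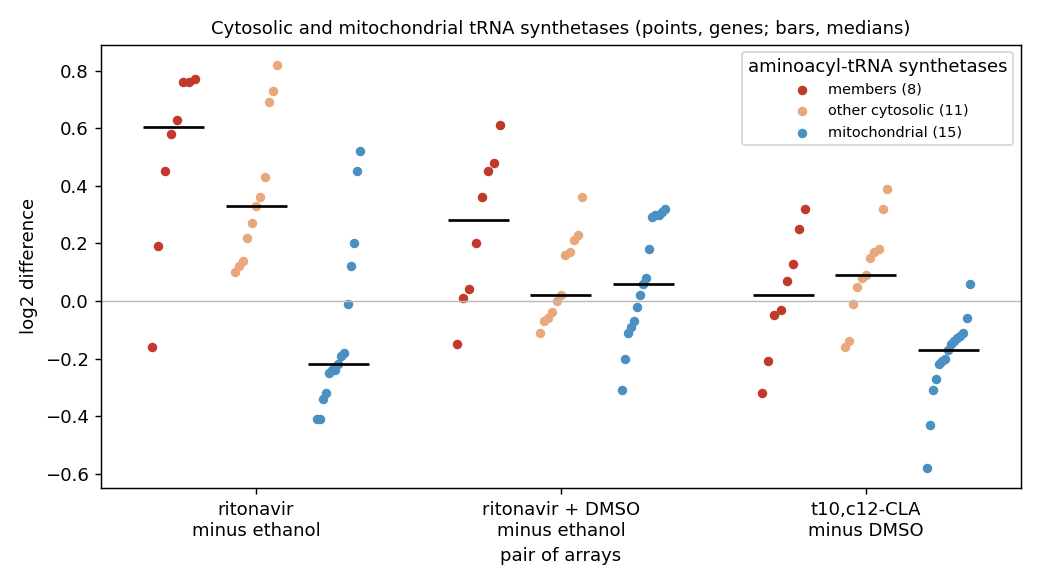
Log2 differences (vertical axis) of tRNA synthetase genes in 3 pairs of arrays (horizontal axis); points are genes and bars are medians over 8 described cytosolic, 11 other cytosolic and 15 mitochondrial genes. With ritonavir the cytosolic medians are 0.61 and 0.33 and the mitochondrial median is -0.22; with t10,c12-CLA against DMSO they are 0.02, 0.09 and -0.17.

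The genes that brake growth and translation mostly went the other way from the rest. Ddit4, or REDD1, restrains mTORC1 and answers to hypoxia and glucocorticoids as well as ATF4. It read 12.81 with ethanol, 12.78 with tenofovir, 11.52 with ritonavir, 12.02 with DMSO, 12.20 with c9,t11-CLA and 11.54 with t10,c12-CLA. All 4 ritonavir arrays lay below both others, and the lowest values were those of ritonavir alone and of t10,c12-CLA.

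Eif4ebp1, which holds back cap-dependent translation, read 13.64 with ethanol, 13.66 with tenofovir, 13.06 with ritonavir, 13.36 with DMSO, 13.46 with c9,t11-CLA and 13.11 with t10,c12-CLA. Its order over the arrays matched that of Ddit4 on the ritonavir arrays, and a second bright probe set also read lower, with differences of -0.41 with ritonavir and -0.10 with ritonavir and DMSO. A dimmer probe set differed the other way, by 0.08 and 0.64. Sesn2, the leucine sensor of the mTORC1 pathway, read 9.62 with ethanol, 9.11 with tenofovir, 9.80 with ritonavir, 9.83 with DMSO, 9.73 with c9,t11-CLA and 9.13 with t10,c12-CLA. It was low on the t10,c12-CLA array in both its probe sets and did not separate by ritonavir. Its low tenofovir value depends on the probe set, since the other one read 9.48 with ethanol and 9.37 with tenofovir.

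The secreted factors gave little signal. Fgf21, a hormone made by stressed liver and fat, read 6.15 with ethanol, 6.19 with tenofovir, 6.43 with ritonavir, 6.62 with DMSO, 6.62 with c9,t11-CLA and 6.53 with t10,c12-CLA. Only the DMSO and c9,t11-CLA arrays reached the detection level, so the size of its difference cannot be read. Stc2, a secreted glycoprotein linked to calcium and phosphate handling, lay between 6.81 and 7.02 on all 6 arrays, near the detection level throughout.

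Taking the 4 ritonavir arrays of both experiments together, 19 of the 34 genes lay above both drug-free arrays on every one of them, where 28.6% of all detected genes did. Below both lay 6 genes, where 22.6% of all did. As shares of the 34 genes these are 55.9% and 17.6%. The 19 included 6 of the 8 regulators, 6 of the 8 synthetases, Asns, Psph, Shmt2, Aldh1l2, Slc3a2, Slc7a1 and Fgf21, whose detection itself rests on ritonavir arrays. The 6 were Cebpg, Cth, Slc38a2, Mars1, Ddit4 and Eif4ebp1. In Cth, Mars1 and Tars1 the nearest arrays of both kinds were only 0.05, 0.07 and 0.04 apart. Those gaps are under the size read as a difference here, and Slc38a2 depends on the probe set. For Shmt2, Cebpg and Eif4ebp1 too, another detected probe set did not separate the arrays in this way. The second experiment and its vehicle are part of this split, since 3 of the 4 ritonavir arrays come from it and neither drug-free array does.

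Genes with the C/EBP-ATF core in their window were not set apart by size. In ritonavir against ethanol the 9 genes had a median of 0.48 and ranged from -0.42 for Nupr1 to 1.11 for Atf3, with 8 above 0. The 19 measured genes with a window and no match had a median of 0.32 and ranged from -1.28 for Ddit4 to 1.70 for Ddit3, with 14 above 0. In ritonavir with DMSO against ethanol the medians were 0.40 and 0.34. Ddit3, with the largest difference, has no match in these 300 bases.

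Tenofovir gave no difference of 1.5-fold in any of these genes. At least 1.5-fold higher were 0 of the 34, against 0.0565% of all detected genes, and 0 were lower, against 0.0404%. At 2-fold the counts were 0 and 0, with 0% of all detected genes in either direction. Even so 26 of the 34 lay below ethanol, with a median of -0.06 against -0.01 over all genes. The lowest were Sesn2 at -0.50 and Slc7a5 at -0.34, and the highest was Mthfd2 at 0.14. For Sesn2 the other probe set gave only -0.11. Many of these differences are within the robust SD of this pair of arrays.

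Ritonavir at the same dose did not give the same level of every gene in the 2 experiments. Against ritonavir alone, the DMSO array had 2 genes at least 1.5-fold higher, Cebpg at 0.75 and Atf3 at 0.72, against 8.43% of all detected genes. It had 2 at least 1.5-fold lower, Aldh1l2 and Shmt2, against 6.18% of all. None reached 2-fold, where 2.83% of all were higher and 2.07% lower. The 1.5-fold shares of these genes, 5.88% in each direction, were no higher than those of all detected genes. The 34 genes divided evenly, 17 above and 17 below, with a median of -0.03 against 0.01 over all genes.

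By role the division was less even. The regulators had a median of 0.27 and the brakes one of 0.30, whereas the transporters had -0.23 and the 8 synthetases -0.24. All of these medians lie within the robust SD of this pair of arrays, 0.314, and the brakes are only 3 genes and the transporters 4. Nars1 differed by -0.56, Chac1 by -0.51 and Ddit4 by 0.50. The mature adipocyte markers were also higher on the DMSO array, as given above, and their part in these differences was not tested. Vehicle and experiment cannot be told apart in this comparison.

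The 2 CLA isomers were compared at the same dose, on the same background of ritonavir, as 1 pair and each against the shared DMSO array. With c9,t11-CLA no gene of the set differed from DMSO by 1.5-fold. At least 1.5-fold higher were 0 genes, against 0.0969% of all detected genes, and lower 0, against 0.0727%. At 2-fold both counts were 0, against 0% of all higher and 0.00807% lower. The median was -0.04 against 0.01 over all genes. The extremes were Atf3 at -0.29 and Atf5 at 0.20, where the robust SD of this pair of arrays was 0.136.

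With t10,c12-CLA, 2 genes were at least 1.5-fold lower than with DMSO, Cth at -0.73 and Sesn2 at -0.71, against 3.96% of all detected genes. At least 1.5-fold higher were 0, against 3.11% of all. At 2-fold both counts were 0, against 0.783% of all higher and 1.05% lower. The median was -0.07 against 0.02 over all genes, and 22 of the 34 lay below 0. Both shares are close to or under their background, and the robust SD of this pair was 0.235.

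Within the set t10,c12-CLA went in different directions, also among genes of 1 role. Lower than DMSO were Ddit4 at -0.48, Mthfd2 at -0.46, Trib3 at -0.44, Cebpg at -0.34, Nupr1 at -0.33, Eprs1 at -0.32 and Phgdh at -0.32. Slc3a2 was higher by 0.37, Shmt2 by 0.36, Nars1 by 0.32 and Sars1 by 0.25. Atf4, Ddit3, Atf3, Asns and Ppp1r15a differed from DMSO by between -0.18 and 0.09. Of the 8 regulators, 7 lay below DMSO, with a median of -0.16, and of the 8 synthetases 4 lay above and 4 below, with a median of 0.02. The adipocyte markers lay lower with t10,c12-CLA, with 8 of the 16 at least 2-fold below DMSO, where 1.05% of all detected genes were. Their part in these values was not tested.

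Set directly against c9,t11-CLA, t10,c12-CLA gave 3 genes at least 1.5-fold lower, Cth at -0.72, Ddit4 at -0.65 and Sesn2 at -0.60, where 4.96% of all detected genes were. At least 1.5-fold higher were 0, where 3.13% of all were. None was 2-fold different, where 0.953% of all were higher and 1.53% lower. Atf3 had the highest difference, 0.39, followed by Nars1 at 0.35 and Sars1 at 0.31. Ddit3 differed by 0.02 and Atf4 by 0.05. With 1 array per isomer none of these differences has an interval, and their likeness in Ddit3 and Atf4 does not show that the isomers act alike.

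**Figure D5:**
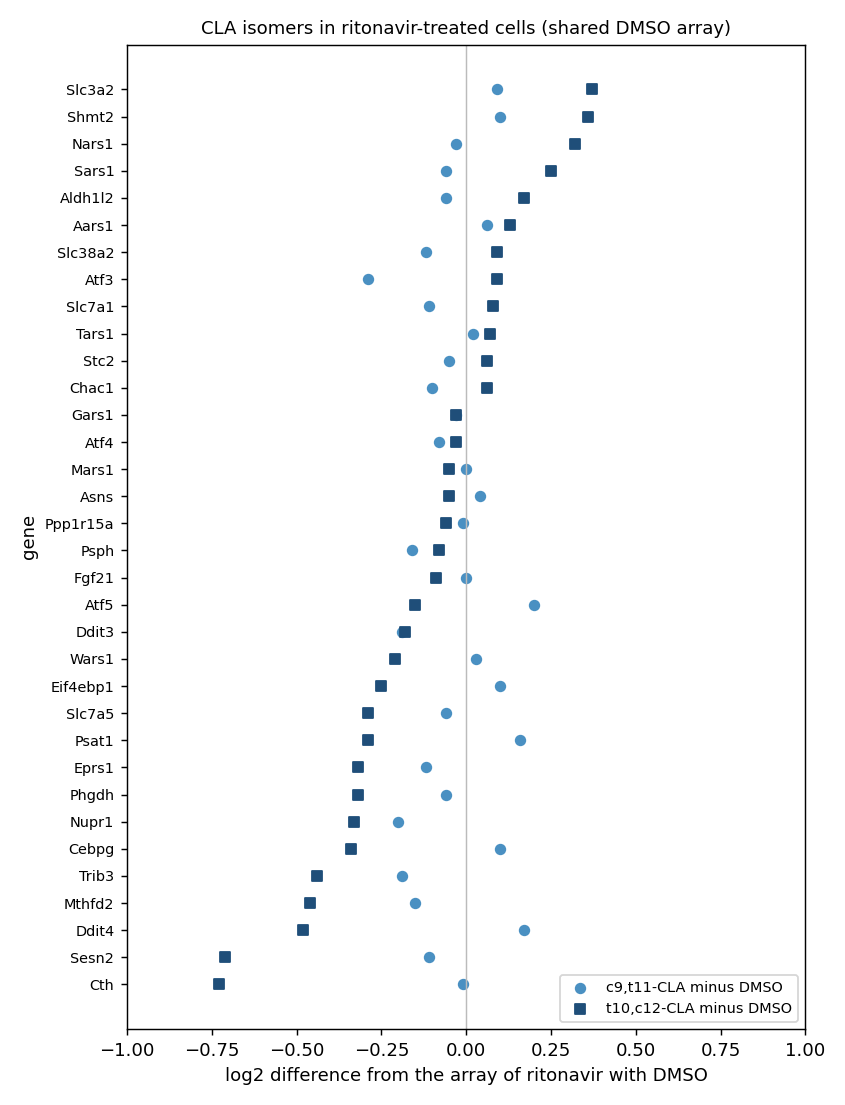
Log2 difference from the array of ritonavir with DMSO (horizontal axis) for the 34 genes (vertical axis, ordered by the t10,c12-CLA value), with circles for c9,t11-CLA and squares for t10,c12-CLA; both isomers share the DMSO array. The circles lie between -0.29 and 0.20, and the squares run from -0.73 for Cth to 0.37 for Slc3a2.

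Other genes of the pathway were followed from lists. Of 15 detected genes for eIF2 kinases, eIF2 and eIF2B subunits and phosphatase factors, 1 was at least 2-fold higher with ritonavir, against 4.56% of all detected genes, and the median was 0.14. That gene was Impact, an inhibitor of the amino acid sensing kinase GCN2. It read 10.01 with ethanol, 10.04 with tenofovir, 11.53 with ritonavir, 11.20 with DMSO, 11.12 with c9,t11-CLA and 11.58 with t10,c12-CLA, so the ritonavir arrays stood more than 1 log2 unit above the others. The GCN2 gene itself, Eif2ak4, was 0.41 higher with ritonavir, and the PERK gene Eif2ak3 differed by -0.30.

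Of 30 other detected ATF4 and CHOP targets, 5 were past 2-fold upward with ritonavir, where 4.56% of all detected genes were, and 2 downward, where 6.39% were. Their median was 0.28. The counts with ritonavir and DMSO were 3 and 2, against 1.52% and 2.99% of all, and the median was 0.11. At 2-fold the downward count with ritonavir alone is near its background. At 1.5-fold, 8 were higher and 6 lower with ritonavir, where 12.4% of all were in each direction. On all 4 ritonavir arrays 13 of the 30 lay above both drug-free arrays, where 28.6% of all did. Below both lay 10, where 22.6% of all did, so these targets went both ways. Bcat1, which starts the breakdown of branched-chain amino acids in the cytosol, read 7.13 with ethanol, 7.04 with tenofovir, 9.80 with ritonavir, 8.49 with DMSO, 8.52 with c9,t11-CLA and 9.49 with t10,c12-CLA. Cdsn, which encodes a keratinocyte adhesion protein, was 2.70 higher with ritonavir. Got1, which makes aspartate, was 1.53 higher with ritonavir and DMSO. Ndrg1, which also answers to hypoxia, differed by -2.50 with ritonavir.

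The other amino acid transporters showed single large differences rather than a shift, with a median of 0.07 over 18 detected. Slc38a4, a carrier of small neutral amino acids, read 7.06 with ethanol, 6.87 with tenofovir, 8.75 with ritonavir, 7.15 with DMSO, 7.33 with c9,t11-CLA and 8.34 with t10,c12-CLA, so it was high on the 2 arrays with the lowest adipocyte marker levels. Slc43a1, a carrier of large neutral amino acids, read 9.66, 9.67, 7.46, 8.70, 9.03 and 8.23 in the same order. Its relative Slc43a2 was highest in the second experiment, at 9.68 with DMSO against 8.26 with ethanol. Of 15 other serine, glycine and folate genes, 0 were 2-fold higher and 2 lower with ritonavir, against 4.56% and 6.39% of all detected genes, so neither count is far from the background. Mthfd1l, the mitochondrial formate-releasing enzyme, read 10.84 with ethanol, 10.71 with tenofovir, 9.72 with ritonavir, 9.20 with DMSO, 9.38 with c9,t11-CLA and 9.37 with t10,c12-CLA. The other, Aldh1l1, is the cytosolic counterpart of Aldh1l2 and differed by -1.59. It was detected only through the drug-free arrays, at 7.28 and 7.32, and read between 5.68 and 6.03 on the ritonavir arrays, under the detection level. The size of its difference therefore cannot be read, and the downward count rests in part on it.

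The chaperone arm of the endoplasmic reticulum stress response did not follow the ATF4 genes in the first experiment. Of 18 detected chaperones and XBP1 or ATF6 targets, 15 were lower with ritonavir, with a median of -0.30. Of all 12386 detected genes, 6164 were lower, with a median of 0.00 and a robust SD of 0.436. Xbp1 differed by -1.81 and Dnajb9, an XBP1 target, by -1.24. Hspa5, or BiP, read 13.73 with ethanol and 13.73 with ritonavir. All 18 were higher with DMSO than in ritonavir alone, with a median of 0.38, and the median against ethanol was 0.16 with DMSO. Of all 12386 detected genes, 6302 were higher with DMSO than in ritonavir alone, with a median of 0.01 and a robust SD of 0.314. Vehicle and experiment cannot be told apart in this pair. The mature adipocyte markers were higher too, with a median of 2.57, and their part was not tested.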

How the data were processed

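The deposited table holds 45101 Affymetrix probe sets on 6 arrays as log2 values, which the authors made with Affymetrix Expression Console and RMA, per the submitters' processing notes. RMA summarises probes and quantile-normalizes arrays, so array medians lie between 6.54 and 6.56, and a shift of all genes together cannot be seen. Values ran from 2.17 to 15.01, and differences among the brightest genes may be compressed. Platform annotation, which can be old, gave 1 symbol for 34958 probe sets, several for 932 and none here for 9211; 7 synthetases were found under older symbols through RefSeq synonyms. Differences, counts and medians were computed with Python 3.11.15, numpy 2.4.6 and pandas 2.3.3, lowess with statsmodels 0.14.6, and the code was tested on simulated data. Shares past a fold were set beside the same share of all 12386 detected genes. Every measured gene of the set was reported. From each further pathway list, the text took up to 2 genes per direction with the largest difference of at least 1, and others named there were chosen after their values were seen. The genes and lists were chosen with earlier results of these data known. Alternatives were the mean of probe sets, probe sets without an _a, _s or _x suffix, and repeated quantile normalization. Others were removal of a lowess trend with a span of 0.3, and values under 6.55 raised to it. The last was a detection level of 8.77, the 75th percentile of the table.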

Additional observations from a re-analysis of the deposited data

How the results depend on the processing

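Each group is 1 array of pooled RNA, so no array could be left out and no error was measured. No paired analysis was possible because each group has 1 array. Over 6 alternatives, 1316 of 1358 recomputed differences of single genes moved by less than 0.113, and 42 moved by more. This tally overstates how firm the values are, since some alternatives could not change most of them. A higher detection level only drops genes, raising low values touches only genes under 6.55, and averaging leaves genes with 1 probe set as they were. Of the 42, 26 came from the mean of probe sets, among 231 values, and 12 from probe sets without suffix, among 189. Median differences kept their sign, between 0.43 and 0.51 for ritonavir against ethanol and between 0.21 and 0.28 for ritonavir with DMSO. Removing a lowess trend put Cebpg at -1.04, which raised the genes at least 2-fold lower with ritonavir from 1 to 2. With the mean of its probe sets Slc38a2 went from -0.63 to 0.24 in ritonavir against ethanol. Probe sets without suffix remained for 27 genes, and gave 0.06 for Wars1 in place of 0.58. Under the 4 alternatives in which it was counted, genes with all ritonavir arrays above both others numbered 15 to 19, and below both 4 to 6. Signal near the detection level limits Fgf21 and Stc2.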

Other observations

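Mitochondrial chaperones and proteases, a group tied to ATF4 through mitochondrial stress, showed little difference with ritonavir, with a median of -0.05 over 13 detected genes. With t10,c12-CLA all 13 were lower than with DMSO, with a median of -0.19, and the mitochondrial synthetases were lower in 14 of 15, with a median of -0.17. The lowest were Clpx, a subunit of the matrix protease, at -0.61, and Nars2 at -0.58. Both were chosen after their values were seen. Of all 12386 detected genes, 5834 were lower with t10,c12-CLA than with DMSO, with a median of 0.02. Both list medians lie within the robust SD of this pair, 0.235. The mature adipocyte markers were also lower on the t10,c12-CLA array, and their part in these values was not tested.

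Of 12 detected dimer partners, antagonists and degradation factors of ATF4, 5 were at least 2-fold lower with ritonavir, where 6.39% of all detected genes were, and 0 higher, where 4.56% were. Fosl1, an AP-1 subunit, read 12.26 with ethanol, 12.11 with tenofovir, 7.89 with ritonavir, 9.60 with DMSO, 10.10 with c9,t11-CLA and 10.22 with t10,c12-CLA. Egln3, an oxygen-sensing hydroxylase, read 12.86, 12.84, 9.19, 11.27, 11.51 and 9.86 in that order. Among 9 detected p53 targets, whose median was -0.09, Btg2 differed from ethanol by -1.34 with ritonavir and by -1.95 with ritonavir and DMSO. The cystine carrier Slc7a11, chosen after its value was seen, read 8.11 with t10,c12-CLA and between 6.47 and 7.16 on the other 5 arrays.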
